A study of Homo sapiens with 8 samples.

Results

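The chemokines that airway epithelial cells can make were followed in A549 cells, an established epithelial line that came from a lung adenocarcinoma. The 10 genes were taken by symbol from the 19158 genes measured: CCL2, CCL20, CCL5, CXCL1, CXCL2, CXCL3, CXCL5, CXCL8, CXCL16 and CX3CL1. All 10 were found, each with 1 gene identifier, and 7 of them passed the filter on low values. One group of 4 wells received no treatment. The other group of 4 wells received dexamethasone, a synthetic glucocorticoid, at 1 µM for 48 h. Both groups were wild type per the labels, carried the same batch label and grew in the same medium with fetal bovine serum, and no inflammatory stimulus is named for either. Replicates were numbered 1, 3, 4 and 5 in each group, and each was 1 well of the same cell line, so that the tests measure the spread between wells.

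Chemokines are small secreted proteins that draw leukocytes along a gradient by binding receptors of the seven-transmembrane class. The members fall into 3 kinds. CXCL1, CXCL2, CXCL3, CXCL5 and CXCL8 carry the glutamate-leucine-arginine (ELR) motif, bind CXCR2 and attract neutrophils. CCL2 attracts monocytes through CCR2, CCL5 attracts T cells, monocytes and eosinophils, and CCL20 attracts cells bearing CCR6. CXCL16 and CX3CL1 are made as membrane-anchored proteins and are released by the proteases ADAM10 and ADAM17. Many chemokine promoters are switched on by NF-kB and AP-1 after stimuli such as interleukin-1 or tumour necrosis factor, and chemokines are classic targets of repression by glucocorticoids in airway epithelium.

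The 5 ELR genes lie together on chromosome 4, between 73740506 and 74099293 (GRCh38 as given with the values), a span of 359 kb. Promoter sequence was found in RefSeq (GRCh38.p14) for 6 of the 10 members, these 5 and CCL20, and the 250 bases before each start site were searched on both strands. The sequence GGAATTTCC, the core of a known NF-kB site, was present before CXCL1, CXCL2, CXCL3, CXCL5 and CXCL8 and absent from the CCL20 window. It occurred in 0.413% of all 35116 promoters. Only these exact letters were searched, so an NF-kB site spelled otherwise would be missed, before CCL20 as elsewhere. The letters were those of a known site, so their presence is a description and no test was made. The share is that of these letters and not of NF-kB sites. The similar promoters of CXCL1, CXCL2 and CXCL3 are not separate finds. The 30 bases around each match are shown because these 5 neighbouring genes share the letters while their measured fold changes were unequal. Capitals mark the match, and each sequence is written 5′ to 3′ on the strand of its gene.
CXCL1: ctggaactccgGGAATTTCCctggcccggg
CXCL2: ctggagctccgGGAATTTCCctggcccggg
CXCL3: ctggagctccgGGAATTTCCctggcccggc
CXCL5: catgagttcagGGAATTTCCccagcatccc
CXCL8: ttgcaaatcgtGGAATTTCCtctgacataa
These stretches are chr4:73869304-73869333 (plus strand) for CXCL1, chr4:74099254-74099283 (minus) for CXCL2, chr4:74038749-74038778 (minus) for CXCL3, chr4:73998749-73998778 (minus) for CXCL5 and chr4:73740467-73740496 (plus) for CXCL8. Counted from the RefSeq start site, the match began at position -78 for CXCL1 and CXCL3, -77 for CXCL2, -90 for CXCL5 and -91 for CXCL8. For CXCL2, CXCL3 and CXCL5 this start site (74099195, 74038689 and 73998677) lay inside the gene interval given with the values. The stretches shown for these genes lay inside that interval too. The AP-1 motif TGANTCA was found before CXCL8 only, at positions -137 to -131, and it occurred in 6.57% of all promoters. The glucocorticoid receptor palindrome, searched as the half-sites GNACA and TGTNC with 3 bases between them, was in none of the 6 windows and in 0.327% of all promoters. Over the 250 bases, CXCL1 and CXCL3 were identical at 86.8% of aligned positions, CXCL1 and CXCL2 at 82.3%, and CXCL2 and CXCL3 at 83.3%. A match describes these letters and is not a measurement of binding.

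Values are FPKM (fragments counted for a gene, divided by its length and its library's total), brought to a common scale between libraries. From the spacing of low values, a library held an estimated 24640000 to 29040000 fragments, below the read pairs the labels state, so fragment numbers given with genes are rough. FKBP5, which glucocorticoids induce, was at 4.00 to 6.76 FPKM in the untreated and at 95.4 to 163 FPKM in the dexamethasone libraries, so the labels of treatment held in every library. Untreated replicate 5 stood apart from its group, with 10555 genes at 1 FPKM or more against 11290 to 11378 in the other untreated libraries, and dexamethasone replicate 5 had the fewest of its group (11008 against 11263 to 11319). The keratins KRT7, KRT8 and KRT18 were abundant in all libraries, with means of 923 to 2573 FPKM, while EPCAM was at 0.518 ± 0.216 FPKM untreated and 0.249 ± 0.0893 FPKM after dexamethasone. Of the 8 epithelial markers 7 were tested, with 2 higher, 2 lower and the 3 keratins above not called. Among all tested genes 12.6% were higher and 14.2% lower. One of the 2 higher, CLDN7, passed the filter through the treated group alone. CDH1 rose from 6.71 ± 0.834 to 18.3 ± 2.24 FPKM and CLDN7 from 0.132 ± 0.159 to 2.84 ± 0.621 FPKM, while KRT19 fell from 160 ± 56.3 to 55.1 ± 11.6 FPKM and CLDN4 fell by 0.78 on the log2(FPKM + 1) scale. Of 7 leukocyte markers found, PTPRC, CD3E and TYROBP were listed at 0 in all 8 libraries. CD14, CD68 and ITGAM were detected, and the list summed to 7.44 to 11.3 FPKM untreated and 3.50 to 4.83 FPKM after dexamethasone. The 7 fibroblast markers summed to 3.19 to 4.80 and 0.980 to 1.25 FPKM with COL1A2 listed at 0 throughout, and the 6 endothelial markers to at most 0.209 FPKM.

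Chemokine transcripts were lower after dexamethasone. CCL2, CXCL5, CXCL3, CXCL16, CXCL8 and CXCL2 fell, from 5.39-fold lower for CCL2 to 1.58-fold lower for CXCL2 by the ratio of mean FPKM. CXCL1 did not pass the test, and CCL20, CCL5 and CX3CL1 were too low to be tested. Thus 6 of the 7 tested members were called at an adjusted p under 0.05 (limma, Benjamini-Hochberg over 12154 tested genes), all 6 lower, where 26.8% of all tested genes were called, 14.2% lower and 12.6% higher. CCL2, CXCL5 and CXCL16 were called with a log2 fold change of -1 or less, as were 3.97% of tested genes. Which members pass this cut depends on the pseudocount, which makes falls of low genes look smaller. By the ratio of mean FPKM, CXCL3 fell 3.245-fold and CXCL8 2.305-fold, against 2.326-fold for CXCL16. The median log2 fold change of the 7 was -0.96 on the log2(FPKM + 1) scale, against 0.01 over all tested genes. In 5 of the 7 the groups did not overlap, with the dexamethasone values below the untreated ones, as in 16.6% of all tested genes (31.4% in either direction). In RNA from whole wells, fewer cells making a transcript and less of it per cell cannot be told apart. Every tested member was above the filter minimum of 0.5 FPKM in all 8 libraries, so none entered the test through 1 group alone. The same 6 members were called without both libraries numbered 5, a setting in which 5534 of 12235 tested genes were called. The leukocyte and fibroblast marker sums given above were also lower after dexamethasone, and their part in these results was not tested.

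**Figure D1:**
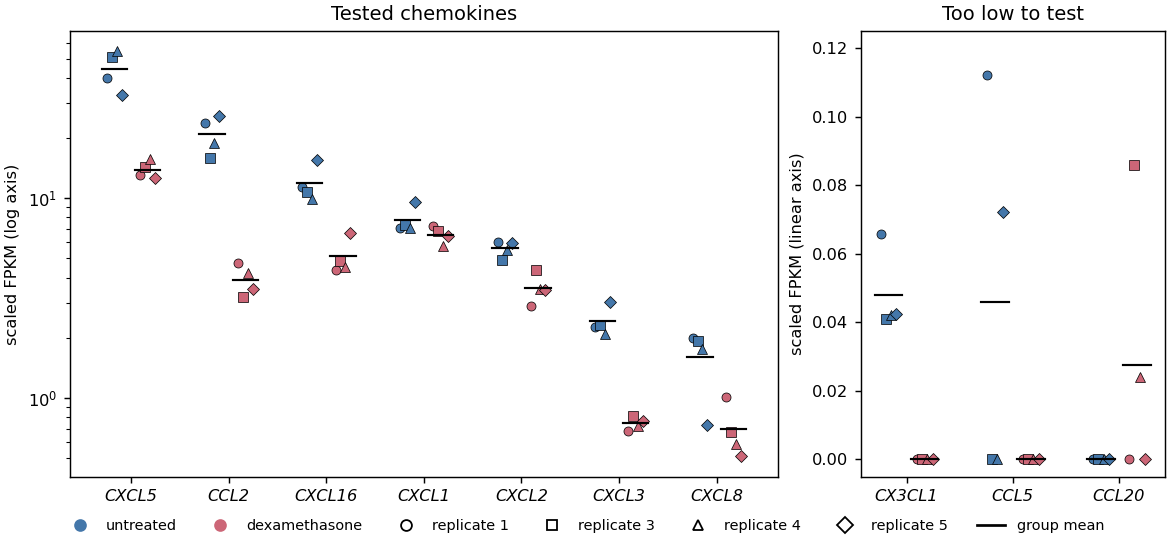
Scaled FPKM of each member in each library, on a log axis for the 7 tested members and on a linear axis for the other 3. Colours give the group, marker shapes the replicate and horizontal lines the group mean. The dexamethasone values lie below the untreated values for CXCL5, CCL2, CXCL16, CXCL2 and CXCL3, while the groups overlap for CXCL1 and CXCL8.

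In untreated cells the order of levels was CXCL5, CCL2, CXCL16, CXCL1, CXCL2, CXCL3 and CXCL8, with no overlap between neighbours in that order. After dexamethasone it was CXCL5, CXCL1, CXCL16, CCL2, CXCL2, CXCL3 and CXCL8. Among these, CXCL1 and CXCL16 overlapped, as did CXCL16 and CCL2, CCL2 and CXCL2, and CXCL3 and CXCL8, so the middle of this order is not resolved. CCL2 was thus the second most abundant member without treatment and was not separable from CXCL2 or CXCL16 with it.

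The 10 members together summed to 94.9 ± 3.15 FPKM without treatment and to 34.5 ± 0.597 FPKM with dexamethasone (SD, n = 4 each), a ratio of 2.75. They held 96.9% ± 1.45 and 96.0% ± 0.857 of the summed FPKM of all 44 chemokine ligand genes found in the files. Within the sum, CXCL5 made up 46.8% ± 9.36 of the untreated and 40.3% ± 3.28 of the dexamethasone total. The share of CCL2 went from 22.3% ± 5.10 to 11.3% ± 2.08, and that of CXCL1 from 8.20% ± 1.37 to 19.1% ± 2.0. In untreated replicate 5 the share of CXCL5 was the lowest of its group at 35.1%, while its sum was within the range of the other untreated libraries.

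**Figure D2:**
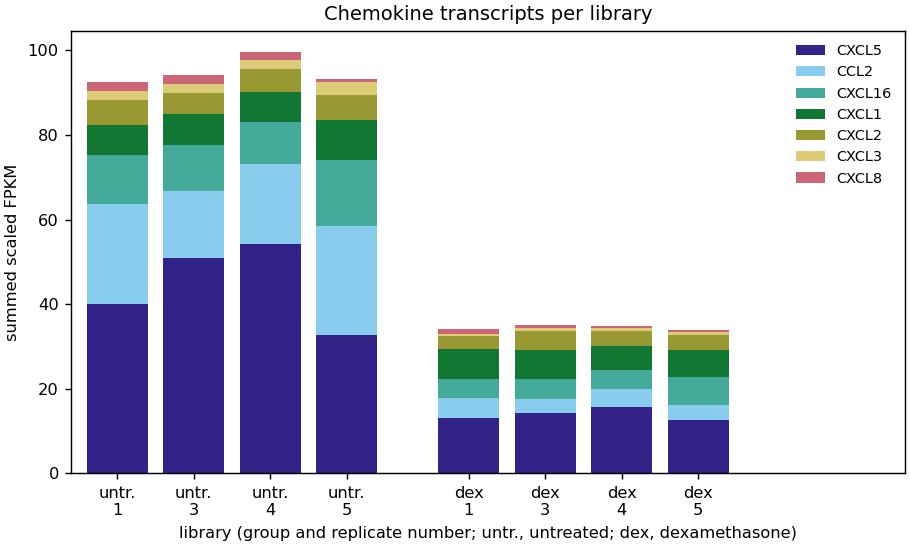
Summed scaled FPKM of the 7 tested chemokines in each library, stacked by gene. The untreated libraries sum to more than 90 FPKM and the dexamethasone libraries to about 34 to 35 FPKM, with CXCL5 the largest part of each bar.

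Among the ELR chemokines, CXCL5 (ENSG00000163735, chromosome 4, 73995642 to 73998779, minus strand) was the most abundant. It gave, in replicate order 1, 3, 4 and 5, 40.1, 51.0, 54.3 and 32.8 FPKM without treatment against 13.1, 14.3, 15.6 and 12.6 FPKM with dexamethasone. The lowest untreated library was thus still above the highest dexamethasone library. Its log2 fold change estimated by limma was -1.59 (SE 0.172, adjusted p = 0.000151), from 44.5 ± 9.90 to 13.9 ± 1.33 FPKM (SD, n = 4 each), with about 1614 to 3768 fragments per untreated and 817 to 1060 per dexamethasone library. Its neighbour CXCL3 (ENSG00000163734, chromosome 4, 74036589 to 74038807, minus strand) was at 2.25, 2.32, 2.08 and 3.02 FPKM untreated and at 0.683, 0.808, 0.721 and 0.768 FPKM after dexamethasone, in replicates 1, 3, 4 and 5. All 4 treated libraries lay in a narrow band below 1 FPKM. The log2 fold change of CXCL3 estimated by limma was -0.96 (SE 0.108, adjusted p = 0.000163), which understates the 3.25-fold ratio of its means because the values are close to the pseudocount of 1. With a pseudocount of 0.1 it was -1.56.

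CXCL2 (ENSG00000081041, chromosome 4, 74097035 to 74099293, minus strand) gave, in replicate order 1, 3, 4 and 5, 6.01, 4.92, 5.52 and 5.97 FPKM without treatment against 2.89, 4.35, 3.53 and 3.47 FPKM with dexamethasone. The groups did not overlap, although dexamethasone replicate 3 came close to untreated replicate 3. The log2 fold change estimated by limma was -0.54 (SE 0.134, adjusted p = 0.0145). CXCL1 (ENSG00000163739, chromosome 4, 73869393 to 73871242, plus strand) gave, in replicate order 1, 3, 4 and 5, 7.06, 7.35, 7.11 and 9.54 FPKM without treatment against 7.24, 6.88, 5.74 and 6.43 FPKM with dexamethasone. Dexamethasone replicate 1 lay above untreated replicates 1 and 4, so the groups overlapped. The log2 fold change of CXCL1 estimated by limma was -0.21 (SE 0.135, 95% interval -0.51 to 0.10, adjusted p = 0.281), and the interval leaves room for a fall of up to that size.

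CXCL8, which encodes interleukin-8 (ENSG00000169429, chromosome 4, 73740506 to 73743716, plus strand), was the least abundant of the tested members. It gave, in replicate order 1, 3, 4 and 5, 2.0, 1.92, 1.77 and 0.731 FPKM without treatment against 1.01, 0.673, 0.590 and 0.509 FPKM with dexamethasone. Untreated replicate 5 lay below dexamethasone replicate 1, and the other 3 untreated libraries lay above all treated ones. The log2 fold change estimated by limma was -0.59 (SE 0.181, adjusted p = 0.0372), resting on about 24 to 88 fragments per untreated and 22 to 44 per dexamethasone library. This call was the least secure of the 6. It was lost without untreated replicate 1, 3 or 4 (log2 fold changes -0.52, -0.53 and -0.55) and without dexamethasone replicate 3, 4 or 5 (-0.59, -0.56 and -0.54), while without untreated replicate 5 the log2 fold change was -0.80 (adjusted p = 0.00076). It was also lost with the values as deposited (-0.61, adjusted p = 0.076) and without the filter on low values (-0.59, adjusted p = 0.058). CXCL8 had the lowest GC content of the members, 32.9% of its transcript, and fold changes fell with GC content over all tested genes (Spearman rho -0.454 over 12123 genes, not replicates of one another). With the trend of each library on GC content removed, CXCL8 was at -1.06 (adjusted p = 0.000218). The part of the GC trend in the values as measured was not tested.

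The log2 fold changes of the 5 ELR genes, which share this stretch of chromosome 4, ranged from -1.59 to -0.21. The ratio of CXCL3 to CXCL1 FPKM was 0.319, 0.316, 0.292 and 0.317 in untreated replicates 1, 3, 4 and 5 and 0.0943, 0.117, 0.126 and 0.119 in dexamethasone replicates 1, 3, 4 and 5. This ratio moved from 0.311 ± 0.0125 to 0.114 ± 0.0137 (SD, n = 4 each) with no overlap. The ratio of CXCL2 to CXCL1 was 0.626 to 0.852 untreated and 0.400 to 0.633 after dexamethasone, which overlapped. The difference in fold change between these genes was not tested as such. CXCL1, CXCL2 and CXCL3 are close paralogs, and CXCL1 shared 5.33% of its 50-base windows with CXCL2 and 0.53% with CXCL3 over the reference transcripts, but 0 of its 150-base windows with either. The authors' treatment of reads that match several genes is not given in the sources used here. Of the other genes inside the same span, PF4 was at 0.320 ± 0.143 FPKM untreated and 0.564 ± 0.102 FPKM after dexamethasone and was not tested, and CXCL6, PPBP and PF4V1 were below 0.11 FPKM in every library.

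CCL2 had the largest fall of the members (ENSG00000108691, chromosome 17, 34255218 to 34257203, plus strand). It gave, in replicate order 1, 3, 4 and 5, 23.7, 15.9, 18.9 and 25.7 FPKM without treatment against 4.73, 3.21, 4.21 and 3.49 FPKM with dexamethasone. The lowest untreated library was more than 3 times the highest treated one. The log2 fold change estimated by limma was -2.16 (SE 0.175, 95% interval -2.55 to -1.76, adjusted p = 2.43e-05), from 21.1 ± 4.47 to 3.91 ± 0.691 FPKM (SD, n = 4 each), and about 329 to 458 fragments per untreated library stood behind it.

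The other CC members were near the limit of detection. CCL5 (ENSG00000271503) was at 0.112 FPKM in untreated replicate 1, at 0.0723 FPKM in untreated replicate 5 and listed at 0 in the other 6 libraries, so that about 4 and 2 fragments were its whole signal. CCL20 (ENSG00000115009) had a value of 0 in every untreated library and in dexamethasone replicates 1 and 5, and was at 0.0860 and 0.0242 FPKM in dexamethasone replicates 3 and 4, or about 2 and 1 fragments. No direction can be drawn from such values.

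Of the membrane-anchored chemokines, CXCL16 (ENSG00000161921, chromosome 17, 4733526 to 4739922, minus strand) gave, in replicate order 1, 3, 4 and 5, 11.4, 10.7, 9.87 and 15.5 FPKM without treatment against 4.38, 4.85, 4.51 and 6.67 FPKM with dexamethasone. The replicate numbered 5 was the highest of each group, and the groups did not overlap. The log2 fold change of CXCL16 estimated by limma was -1.07 (SE 0.173, adjusted p = 0.00158). It has a GC content of 57.4%, and with the GC trend removed the log2 fold change was -0.86 (adjusted p = 2.7e-05). CX3CL1 (ENSG00000006210, chromosome 16, 57372458 to 57385048, plus strand) gave 0.0659, 0.0411, 0.0423 and 0.0426 FPKM without treatment, in replicate order 1, 3, 4 and 5, and was listed at 0 in all 4 dexamethasone libraries. About 3 to 6 fragments per untreated library made up this signal. CX3CL1 was too low to be tested, and as for CCL5 and CCL20 no direction is drawn from it.

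**Figure D3:**
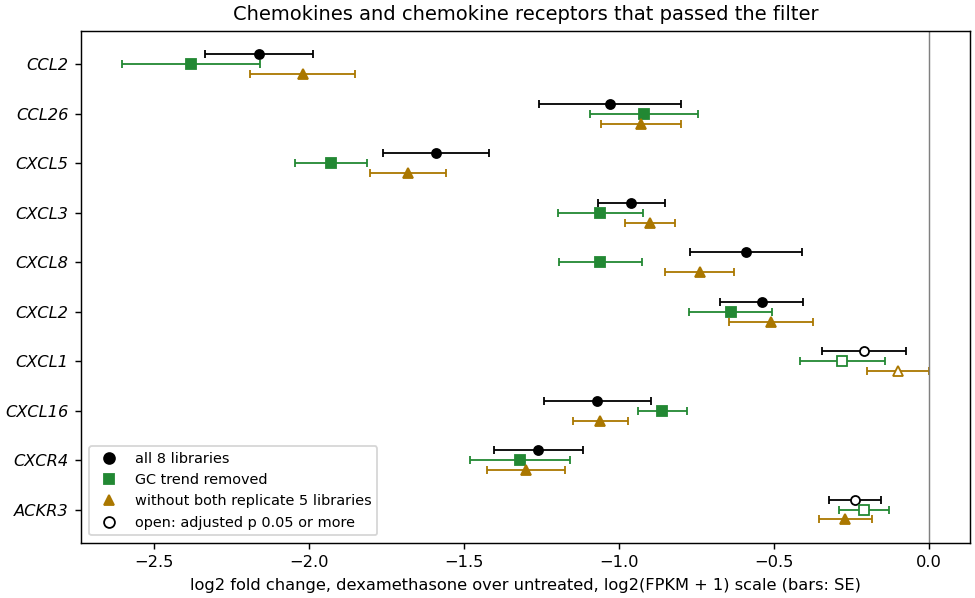
Log2 fold change with its SE for the 7 tested members, the chemokine CCL26 and the receptors CXCR4 and ACKR3, with all 8 libraries, with the GC trend removed, and without both libraries numbered 5. Filled points passed an adjusted p of 0.05. CXCL1 is unfilled in all 3 settings, and CXCL8 moves from -0.59 to -1.06 with the GC trend removed.

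The genes whose levels followed a member most closely were listed for the most abundant tested member of each kind, by Pearson's r of log2(FPKM + 1) over the 8 libraries. Since most of this variation is the difference between the groups, the values describe shared direction, and all libraries come from the same cell line. For CXCL5 the closest of 12154 genes was PTGS2, which encodes cyclooxygenase-2 (r = 0.997, from 3.44 ± 0.916 to 0.764 ± 0.170 FPKM), followed by CENPH, MORC4, RPIA and NEIL3 (r = 0.993 to 0.996). For CCL2 they were INSL4 (r = 0.995, from 5.09 ± 0.501 to 1.18 ± 0.246 FPKM), FGFBP1, KCNMA1, PADI2 and THY1 (r = 0.991 to 0.993). After dexamethasone PADI2 (0.148 ± 0.0513 FPKM) and THY1 (0.352 to 0.417 FPKM) were under the filter minimum of 0.5 FPKM. Both thus entered the tested genes through the untreated group alone. For CXCL16 they were CDCA3 (r = 0.998), TGFB1, MTMR11, PFAS and MARCKSL1 (r = 0.997 each). No other member was among the 5 closest: the nearest member was CXCL3 to CCL2 (r = 0.971) and to CXCL16 (r = 0.969), and CCL2 to CXCL5 (r = 0.910).

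Other chemokines and their receptors were scarce. Of 22 other CC ligands found, only CCL26 passed the filter. CCL26, eotaxin-3, binds CCR3 and attracts eosinophils. It gave, in replicate order 1, 3, 4 and 5, 2.15, 1.78, 1.56 and 4.28 FPKM without treatment against 0.313, 0.717, 0.490 and 1.03 FPKM with dexamethasone. It fell by 1.03 on the log2 scale (SE 0.229; adjusted p from limma = 0.00893). Some treated values of CCL26 were under the filter minimum, so it entered the test through the untreated group. The groups did not overlap, and the libraries numbered 5 were the highest of each group. None of 12 other CXC and C ligands found passed the filter, among them CXCL10 and CXCL11, which were listed at 0 in all 8 libraries.

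Of 22 receptors found, CXCR4 and ACKR3 passed the filter, and both bind CXCL12. CXCR4 gave, in replicate order 1, 3, 4 and 5, 2.26, 2.67, 2.63 and 3.23 FPKM without treatment against 0.239, 0.679, 0.463 and 0.854 FPKM with dexamethasone. It fell by 1.26 on the log2 scale (SE 0.143; adjusted p from limma = 0.0002), having also entered the test through the untreated group. ACKR3, a scavenging receptor, was at 1.15 ± 0.103 and 0.815 ± 0.0808 FPKM (SD, n = 4 each) and was not called (log2 fold change -0.24, SE 0.0846, limma adjusted p = 0.06), although its groups did not overlap. It passed without untreated replicate 5 (-0.27, adjusted p = 0.0462), without both libraries numbered 5 (-0.27, adjusted p = 0.0381) and without the filter (-0.24, adjusted p = 0.0379). CXCR1 and CXCR2, the receptors of the ELR chemokines, and CCR2, the receptor of CCL2, were listed at 0 in all 8 libraries.

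The proteins that release the anchored chemokines or cut soluble ones were read against the same background, in which 26.8% of all tested genes were called (12.6% higher and 14.2% lower) with a median log2 fold change of 0.01. Of 11 genes, 6 were tested, with 1 higher, 2 lower and a median log2 fold change of -0.09. ADAM10, the main constitutive sheddase of CXCL16 and CX3CL1, rose from 7.89 ± 2.69 to 15.2 ± 3.36 FPKM (log2 fold change 0.90, SE 0.244, limma adjusted p = 0.0225), while ADAM17, named after its values were seen, was at 12.0 ± 2.13 and 12.1 ± 0.845 FPKM (limma adjusted p = 0.951). The ADAM10 call was lost without untreated replicate 1 (0.87, adjusted p = 0.0653), without dexamethasone replicate 1 (0.78, adjusted p = 0.0694) or 4 (0.88, adjusted p = 0.0605) and with the values as deposited (0.90, adjusted p = 0.0654), and with the GC trend removed the value was 0.57 (adjusted p = 0.00385). MMP2, a protease that can cut CCL and CXCL chemokines, fell by 1.14 on the log2 scale (SE 0.133; adjusted p from limma = 0.000235). DPP4 and MMP9, on the same list and named after their values were seen, were too low to be tested and moved in opposite directions. DPP4 was at 0.0389 to 0.294 FPKM untreated and 0.434 to 0.858 FPKM after dexamethasone. MMP9 was at 0.129 to 0.175 FPKM untreated and 0 to 0.0549 FPKM after dexamethasone. RHBDF2, a partner of ADAM17, fell from 25.1 ± 3.50 to 17.5 ± 2.66 FPKM (-0.50, limma adjusted p = 0.0319), a call lost without untreated replicate 1 (-0.52) or 3 (-0.53) and without dexamethasone replicate 1 (-0.43), 3 (-0.50) or 4 (-0.48), and with the GC trend removed RHBDF2 was at -0.25 (adjusted p = 0.0297).

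Among 22 inducing cytokines, receptors and adaptors, 12 were tested, with 4 higher, 1 lower and a median log2 fold change of 0.01 (all tested genes: 12.6% higher, 14.2% lower, median 0.01). IL18 rose from a mean of 24.0 FPKM (20.2 to 27.9) to 116 FPKM (103 to 128) (log2 fold change 2.24, limma adjusted p = 6.32e-06). The interferon-gamma receptor chain IFNGR1 rose from 6.85 ± 1.96 to 25.8 ± 4.88 FPKM (1.79, limma adjusted p = 0.000348), and the interleukin-1 receptor IL1R1 from 4.49 ± 1.01 to 12.4 ± 2.0 FPKM (1.30, limma adjusted p = 0.000527). TRAF2, an adaptor of tumour necrosis factor receptors, fell from 47.0 ± 11.9 to 19.7 ± 4.15 FPKM (-1.21, limma adjusted p = 0.00184). Other genes of this list were named after their values were seen. IL17RC was called higher with overlapping groups (0.77, limma adjusted p = 0.0247). The receptor chains IFNGR2 (-0.19, limma adjusted p = 0.403) and IL1RAP (-0.13, limma adjusted p = 0.451) were not called. Nor were MYD88 (-0.78, limma adjusted p = 0.0947) and IRAK1 (-0.57, limma adjusted p = 0.157).

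Of 18 NF-kB and AP-1 factors and their kinases, 17 were tested, with 5 higher, 5 lower and a median log2 fold change of -0.23, against 12.6% higher and 14.2% lower among all tested genes. The non-canonical NF-kB subunits fell: RELB from 15.6 ± 4.12 to 3.09 ± 1.01 FPKM (-2.02, limma adjusted p = 0.000112) and NFKB2 from a mean of 68.2 FPKM (59.8 to 87.5) to 20.6 FPKM (15.8 to 27.6) (-1.70, limma adjusted p = 0.000246). RELA was at 31.5 ± 11.8 and 24.3 ± 9.25 FPKM (limma adjusted p = 0.397) and NFKB1 at 12.2 to 13.4 and 11.8 to 12.9 FPKM (limma adjusted p = 0.557), and neither was called. These subunits form the classical NF-kB dimer and were named after their values were seen. NFKBIZ, also named after its values were seen, was called higher, from 2.53 ± 0.340 to 3.73 ± 0.445 FPKM (0.42, limma adjusted p = 0.0323). REL (-0.23, limma adjusted p = 0.599) and BCL3 (-0.31, limma adjusted p = 0.256), named likewise, were not called. The AP-1 subunit FOSL1 fell from 27.6 ± 3.54 to 7.75 ± 1.12 FPKM (-1.71, limma adjusted p = 2.28e-05). The other AP-1 subunits, named after their values were seen, went both ways. FOS rose from 1.09 ± 0.518 to 3.79 ± 0.537 FPKM (1.22, limma adjusted p = 0.000699) and FOSL2 from 42.3 ± 3.45 to 71.6 ± 5.64 FPKM (0.75, limma adjusted p = 0.0018), while JUN fell from 16.0 ± 0.955 to 11.3 ± 0.871 FPKM (-0.47, limma adjusted p = 0.0128). JUNB (0.61, limma adjusted p = 0.0493) was called higher and JUND (-0.60, limma adjusted p = 0.0474) lower, both with overlapping groups, and FOSB was too low to be tested. CEBPB, a factor that also acts on the CXCL8 promoter, rose from 52.2 ± 11.2 to 155 ± 25.0 FPKM (1.56, limma adjusted p = 0.000217).

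The next list held 16 inhibitors of signalling and factors that act on mRNA stability. All 16 were tested, with 9 higher, 3 lower and a median log2 fold change of 0.69. Among all tested genes 12.6% were higher and 14.2% lower. One of the 9, IRAK3, passed the filter through the treated group alone. TSC22D3, which encodes the glucocorticoid-induced leucine zipper GILZ, rose from 6.19 ± 1.49 to 102 ± 5.33 FPKM (3.87, limma adjusted p = 4.27e-07). ZFP36, which encodes tristetraprolin, a protein that promotes decay of AU-rich mRNAs including chemokine mRNAs, rose from 12.2 ± 1.35 to 59.6 ± 4.36 FPKM (2.20, limma adjusted p = 2.44e-06). IRAK3, an inhibitor of interleukin-1 and Toll-like receptor signalling, was at 0 to 0.0274 FPKM untreated and at 0.518 to 1.00 FPKM after dexamethasone. NFKBIE, an inhibitor of NF-kB, fell from 8.03 ± 1.80 to 2.26 ± 0.530 FPKM (-1.46, limma adjusted p = 0.000231). Other inhibitors of NF-kB on this list, named after their values were seen, went otherwise. NFKBIA (0.78, limma adjusted p = 0.00768), TNFAIP3 (0.74, limma adjusted p = 0.0026) and TNIP1 (0.73, limma adjusted p = 0.0307) were called higher. NFKBIB was not called (-0.48, limma adjusted p = 0.195). The factors of mRNA stability other than ZFP36, named after their values were seen, went both ways. ZC3H12A (1.12, limma adjusted p = 0.000472) and ZFP36L2 (0.65, limma adjusted p = 0.00203) were called higher. HNRNPD (-0.61, limma adjusted p = 0.00503) and ELAVL1 (-0.53, limma adjusted p = 0.0331) were called lower. KHSRP (-0.57, limma adjusted p = 0.0534), ZFP36L1 (0.11) and RC3H1 (0.28) were not called.

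Of 9 other secreted cytokines, 4 were tested, with 0 higher, 3 lower and a median log2 fold change of -1.22, where 14.2% of all tested genes were lower and their median was 0.01. The 3 were IL11 (-3.32, SE 0.168, limma adjusted p = 1.33e-06), LIF (-1.26, SE 0.116, limma adjusted p = 4.61e-05) and IL32 (-1.19, SE 0.25, limma adjusted p = 0.00671). Of these, IL11 entered the test through the untreated group alone. IL6 was too low to be tested.

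**Figure D4:**
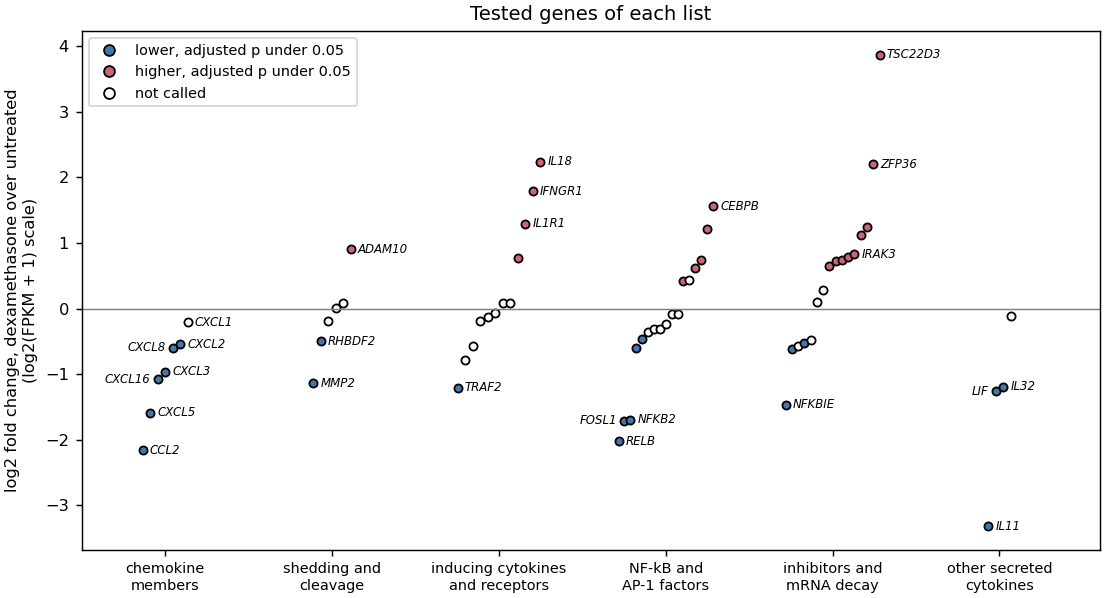
Log2 fold change of each tested gene, by list, with colours for genes called higher or lower and white for genes not called. All 7 tested chemokines lie below 0, and the lists of factors and inhibitors hold genes on both sides.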

How the data were processed

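The authors deposited 1 table per library with a value for each of 19158 genes. The labels describe these values as counts, but they are not whole numbers, and they were read as FPKM, a unit inferred from the deposited values and named in no label or header. Per the submitters' processing notes, FastQC 0.11.9, Cutadapt 3.4, STAR 2.7.9a on GRCh38, featureCounts of Subread 2.0.3 and DESeq2 1.32.0 were used. The annotation, the use of strand and the step that made the values are not given in the sources used here. Depth was inferred from low FPKM values of genes that have a single transcript in GENCODE v44. Of these, 41.7% to 45.9% lay within 0.1 of a whole number (20% by chance), which did not give back the counts. The search was limited to a range chosen after seeing that multiples of the estimate matched as well, and the labels state more read pairs per library than it gives. Fragment numbers are therefore approximate and could be low by a whole factor.

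Libraries were scaled by TMM without weights (0.3 of M and 0.05 of A trimmed at each end). Genes at 0.5 FPKM or more in 4 libraries (3 when a library was left out) were tested on log2(FPKM + 1) with limma 3.58.1 in R 4.3.3 (eBayes with trend and robust, group as the only term, two-sided). The fit was first tested on simulated data with noise drawn independently for each gene. That simulation held no replicate effect or GC trend shared between genes, so it does not speak to either in these data. A fold change on this scale is too small for genes near the pseudocount. The members and lists were chosen with earlier results of these data known. Named genes were all members, every tested other chemokine or receptor, up to 4 called genes per list by smallest p, and the 5 genes closest to 1 member of each kind. Alternatives covered the pseudocount, filter, scaling, moderation, GC trend, replicate block and each library left out. Promoters came from RefSeq and were aligned with Biopython 1.88. Several named genes overlap an annotated gene on the opposite strand (CXCL16, CXCL5, CCL5, IL18, IRAK3, ADAM10, IL32, MMP2, IL1R1, LIF, RELA, FKBP5, TSC22D3, CEBPB, JUNB, FOSL2, CDH1, KRT7, KRT8 and KRT18 among them), which matters if the counting ignored strand. Some named genes overlap a protein-coding gene on the same strand (CLDN7, PF4, PPBP, KRT7, PER1, NFKBIZ and IL17RC among them), which can matter whether or not strand was used. PER1 was measured only as a check of treatment.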

Additional observations from a re-analysis of the deposited data

Results flagged for a closer look

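In 60 groups of 4 values (the genes tested by name, in each group), 5 held a library that stood apart from the other 3 by Dixon's criterion, where chance gives about 1 in 20. CXCL1 in untreated replicate 5 was at 9.54 FPKM, while the other untreated libraries were at 7.06 to 7.35 FPKM. Before scaling this value was 7.83 FPKM, inside the range of the others. In the same library RELB was at 21.8 FPKM, CEBPB at 69.0 FPKM and NFKB2 at 87.5 FPKM, each above the other untreated libraries. ZFP36 in dexamethasone replicate 5 was at 66.1 FPKM, above the other dexamethasone libraries. The scaling factors of untreated replicate 5 (0.821) and dexamethasone replicate 5 (0.915) were the lowest of their groups.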

How the results depend on the processing

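CCL2, CXCL5, CXCL3, CXCL16 and CXCL2 stayed lower and called, and CXCL1 lower and not called, in each of the 19 alternatives, with log2 fold changes of -2.39 to -2.02, -1.93 to -1.48, -1.56 to -0.90, -1.20 to -0.86, -0.65 to -0.47 and -0.28 to -0.10. CXCL8 was lower in all 19 (-1.06 to -0.52) and not called in 8. With a pseudocount of 0.1, CXCL3 was at -1.56, CXCL8 at -1.05, CCL26 at -1.77, CXCR4 at -2.18 and MMP2 at -1.82, all still called. The count of members called lower was 5 or 6 in every setting; without the filter the 6 include CX3CL1, whose treated libraries are all at 0, in place of CXCL8. Over all genes, 3259 were called, and 2284 to 3866 with 1 library left out. That count was 5534 without both libraries numbered 5, 5740 with a replicate block, and 5322 with a replicate block and the GC trend removed. The cause was not tested. Same-numbered libraries deviated together with correlations of 0.294, 0.0671, 0.315 and 0.714 for replicates 1, 3, 4 and 5, and untreated replicate 3 correlated better with dexamethasone replicate 1 (0.434), so the numbers were not taken to pair the wells. The block changed no call of a member. The depth of a few fragments limits CCL5, CCL20 and CX3CL1.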
